A study of Mus musculus with 12 samples.

Results

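Early 2-cell mouse embryos that had received an antisense oligonucleotide (ASO) against LINE1 as zygotes were compared here with embryos that had received the RC control ASO, over all genes. The comparison used 6 of the 12 libraries of the study, those of the early 2-cell stage (early 2C), with 3 libraries a side. Total RNA was sequenced, and the values are raw read counts per gene for 23284 genes.

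The LINE1 ASO group held C57BL/6J embryos microinjected at the zygote stage with LINE1 ASO at 0.75 mM. The RC ASO group held embryos of the same strain injected with RC ASO at the same concentration, a name that the labels do not spell out. The mothers were superovulated C57BL/6J females aged 5 to 8 weeks and the fathers males aged 2 to 6 months. Both groups were cultured in KSOM medium and collected about 33 h after hCG, the ovulation-inducing hormone, which is about 9 h after injection. The other 6 libraries came from embryos given the same ASOs and cultured for 2 days to the 4-cell stage (4C), and they serve below only as a second set of libraries. Reads of LINE1 itself were not analysed here, and the depth of the knockdown is therefore unknown. The labels do not state whether replicates were independent pools of embryos, so the p-values reflect library-to-library spread that could be technical only.

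LINE1 is an autonomous retrotransposon that makes up a large share of the mouse genome, and its RNA is abundant in the nuclei of early embryos. In embryonic stem cells LINE1 RNA is known to act as a nuclear scaffold for nucleolin and Trim28, which together keep the transcription factor gene Dux silent and support ribosomal RNA synthesis. In the mouse 2-cell embryo the zygotic genome takes over from stored maternal RNA: maternal transcripts are decapped, deadenylated and degraded while Dux, retroviral MERVL elements and the genes linked to them are transcribed in a short wave. The early 2C libraries were taken while that handover was under way.

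The total per library was 51854939, 27374708 and 31340610 counts in LINE1 ASO embryos, and 25803112, 28861666 and 29131716 counts in RC ASO embryos. Ccdc82 was the most abundant gene of every library, with 4.94% to 5.62% of the counts. The libraries were close to one another: log2 CPM (counts scaled to a standard library size, with library sizes adjusted by TMM factors) correlated across genes at 0.972 to 0.979 between the groups and at 0.973 to 0.981 within them, once RC ASO replicate 2 was left out. RC ASO replicate 2 stood apart, with correlations of 0.957 to 0.964 with the other 5 libraries, and list medians that move without it are given both ways. Markers of the maternal oocyte were abundant, with 43782 to 45181 summed CPM in LINE1 ASO libraries and 42532 to 45608 in RC ASO libraries for the 61 maternal genes in the data. The 56 2-cell-stage genes in the data summed to 3389 to 3556 CPM in LINE1 ASO libraries and 3355 to 3707 CPM in RC ASO libraries. Most of that sum came from E330021D16Rik (1696 to 1895 CPM in LINE1 ASO libraries), Sp110 (546 to 641 CPM) and Pramef12 (584 to 685 CPM). Other members were lower, such as Zscan4d, with a mean of 3.74 CPM in LINE1 ASO and 6.01 CPM in RC ASO. Markers of other cells were low or even. The haemoglobin genes Hba-a1 and Hbb-b1 had 0 counts in all 6 libraries. The 20 cumulus and granulosa markers summed to 23.8 to 29.5 CPM in LINE1 ASO libraries and 24.3 to 26.8 CPM in RC ASO libraries. Of the sperm markers, the protamine gene Prm1 reached at most 0.037 CPM and Prm2 ran from 1.01 to 4.30 CPM. Odf2 had 376 to 421 CPM in LINE1 ASO libraries and 382 to 455 CPM in RC ASO libraries. The sperm list summed to 382 to 428 and 386 to 462 CPM in the same order, nearly all from Odf2. Of the markers of other cells, 8 of 20 for cumulus and granulosa, 4 of 21 for sperm and 1 of 15 for blood had enough counts to be tested, and none passed.

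Of 13625 genes tested, 37 were higher in LINE1 ASO embryos (0.272%) and 13 were lower (0.0954%), by edgeR's quasi-likelihood F-test with a Benjamini-Hochberg adjusted p under 0.05. The 50 called genes (0.367%) covered several processes: energy and nutrient sensing (Prkab1, Rragc, Ddit4), mRNA decapping and nonsense-mediated decay (Dcp1a, Upf1, Smg1), and regulators of transcription such as Phf13, Zfp866 and Ets2 on the higher side. On the lower side stood an mRNA cleavage enzyme (Cpsf3), an endoplasmic reticulum foldase (Pdia4), the entry enzyme of the pentose phosphate pathway (G6pdx) and a sterol-sensing nuclear receptor (Nr1h2). The libraries were made from bulk embryos with no spike-in stated, so values are relative to the other genes of a library, and fewer cells expressing a gene cannot be told apart from less RNA per cell. Differences were moderate, with a median log2 fold change of 0.54 among the higher genes (0.44 to 1.38) and -0.71 among the lower ones (-0.94 to -0.48). In all 50 the 3 LINE1 ASO libraries lay on 1 side of the 3 RC ASO libraries, which was so for 14.2% of all tested genes, 7.49% with LINE1 ASO above and 6.67% below. An unadjusted p under 0.05 was reached by 1205 genes (8.84%), 544 of them higher (3.99%) and 661 lower (4.85%).

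Whether a gene was called depended on its depth and on single libraries. None of the 2998 tested genes with a mean under 50 counts per library or the 2540 with 50 to 200 counts was called, against 0.147% of those with 200 to 1000 counts, 0.688% of those with 1000 to 5000 and 1.54% of those with 5000 or more. When each of the 6 libraries was left out in turn, 5 genes kept their call in all 6 fits: Dcp1a, Phf13, Prkab1, Upf1 and Zfp866, all higher in LINE1 ASO embryos. Ets2, Rragc and the clone-named gene D10Wsu102e kept it in 5 fits, and the other called genes in 1 to 4. Leaving out LINE1 ASO replicate 2 left 5 calls and leaving out replicate 1 left 10, whereas 110 genes were called when replicate 3 of that group was left out. With RC ASO replicate 1, 2 or 3 left out there were 25, 88 and 36 calls. All 50 genes kept their direction in each of those fits. DESeq2 called 162 of 8027 genes (2.02%), and these held all 50.

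**Figure D1:**
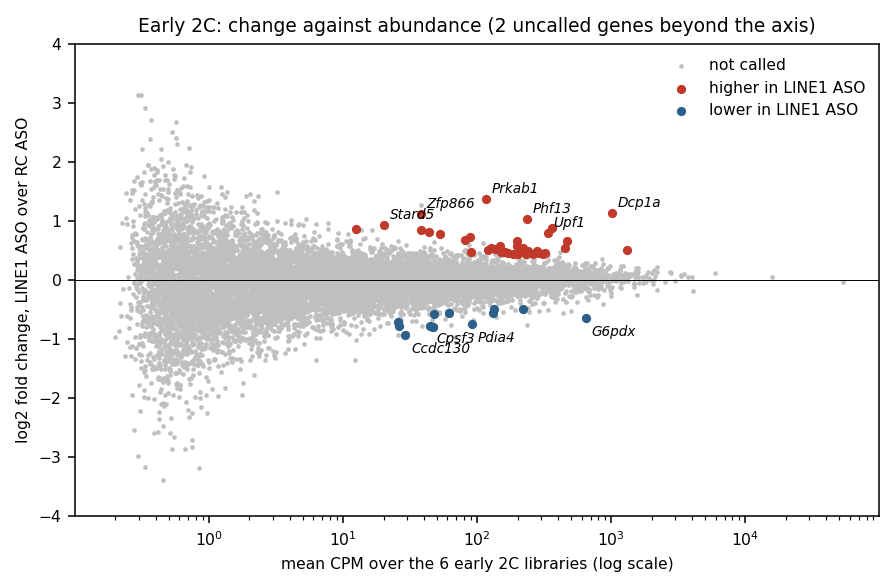
Log2 fold change at early 2C, LINE1 ASO over RC ASO, against the mean CPM of each tested gene over the 6 libraries (log axis). Red points are the 37 genes called higher in LINE1 ASO embryos, blue points the 13 called lower and grey points genes that were not called; calls lie among well counted genes, and the grey cloud widens to the left.

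The promoters of 4 of the 5 genes that kept their call in every fit are shown first, because no single library decides those calls, with that of Pdia4, a lower gene with 4 of 6 fits, for comparison. Each is the 300 bases from 250 before to 50 after the transcription start that RefSeq lists (build GRCm38.p6), written 5′ to 3′ on the gene's strand. Dcp1a is at chr14:30479315-30479614 on the plus strand. Phf13 (chr4:151996130-151996429), Prkab1 (chr5:116024379-116024678), Upf1 (chr8:70353230-70353529) and Pdia4 (chr6:47813463-47813762) are on the minus strand. Capitals mark matches, on either strand, to CCGGAAG (the core that ETS-family factors recognise), CACGTG (the E-box), GGGCGG (the GC box) or CCAAT.
Dcp1a: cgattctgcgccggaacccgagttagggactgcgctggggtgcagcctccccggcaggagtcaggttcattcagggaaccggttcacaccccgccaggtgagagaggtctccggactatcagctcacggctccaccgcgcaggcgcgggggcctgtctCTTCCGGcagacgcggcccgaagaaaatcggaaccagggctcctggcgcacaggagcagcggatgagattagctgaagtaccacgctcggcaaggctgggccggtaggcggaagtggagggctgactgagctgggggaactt
Phf13: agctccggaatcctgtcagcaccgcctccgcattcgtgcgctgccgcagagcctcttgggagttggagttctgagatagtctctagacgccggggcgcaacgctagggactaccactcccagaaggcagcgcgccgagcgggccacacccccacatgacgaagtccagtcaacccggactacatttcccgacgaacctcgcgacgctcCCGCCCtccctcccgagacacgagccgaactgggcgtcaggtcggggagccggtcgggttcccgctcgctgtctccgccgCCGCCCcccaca
Prkab1: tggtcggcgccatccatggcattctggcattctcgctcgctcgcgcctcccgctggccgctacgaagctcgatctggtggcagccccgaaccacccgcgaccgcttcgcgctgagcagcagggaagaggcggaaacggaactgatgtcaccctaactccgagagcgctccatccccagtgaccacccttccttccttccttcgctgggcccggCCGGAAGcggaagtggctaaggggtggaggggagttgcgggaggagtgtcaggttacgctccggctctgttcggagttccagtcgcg
Upf1: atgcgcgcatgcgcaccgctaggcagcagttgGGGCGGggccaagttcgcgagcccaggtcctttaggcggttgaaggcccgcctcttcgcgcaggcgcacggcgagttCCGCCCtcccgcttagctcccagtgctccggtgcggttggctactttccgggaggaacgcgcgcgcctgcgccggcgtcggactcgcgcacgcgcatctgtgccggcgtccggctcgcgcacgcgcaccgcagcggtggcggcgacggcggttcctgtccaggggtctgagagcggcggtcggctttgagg
Pdia4: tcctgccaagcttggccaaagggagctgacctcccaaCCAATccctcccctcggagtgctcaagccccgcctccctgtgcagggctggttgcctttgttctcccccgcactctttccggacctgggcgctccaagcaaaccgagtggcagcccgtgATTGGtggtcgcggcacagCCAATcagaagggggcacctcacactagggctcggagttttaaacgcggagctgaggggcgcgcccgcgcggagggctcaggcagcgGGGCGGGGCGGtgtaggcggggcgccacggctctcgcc

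Dcp1a and Prkab1 each held 1 match to CCGGAAG and none to GGGCGG, while Phf13 and Upf1 each held 2 matches to GGGCGG and none to CCGGAAG. Pdia4 held 3 matches to CCAAT and 2 overlapping ones to GGGCGG. None of the 5 held CACGTG. RefSeq gave a promoter for 31 of the 37 higher genes, all 13 lower ones and 10762 of all tested genes. CCGGAAG was in 19.4% of the higher genes' promoters, 23.1% of the lower genes' and 17.3% of all. CACGTG was in 12.9%, 0% and 10.1% in the same order, CCAAT in 51.6%, 30.8% and 39.4%, and GGGCGG in 83.9%, 69.2% and 61.6%. These shares describe letters in a window and were not tested.

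Among genes of energy and nutrient sensing, 3 of 50 tested rose and none fell in LINE1 ASO embryos, beside 0.272% of all tested genes that rose and 0.0954% that fell. This list and the others were chosen with earlier results of these data known, so such counts do not test a list. Calls were also more frequent among well counted genes, and the shares over all genes are not matched for depth. The energy and nutrient sensing list holds AMP-activated protein kinase (AMPK), which responds to low energy, the growth-promoting kinase complex mTORC1, and the Rag GTPases, sestrins and other proteins that tell mTORC1 of amino acids and stress. Prkab1, a regulatory beta subunit of AMPK, stood at 175, 181 and 145 CPM in the 3 LINE1 ASO libraries, against 59.3, 81.6 and 51.8 CPM in the RC ASO libraries. Its lowest LINE1 ASO library was well above its highest RC ASO library, and its log2 fold change of 1.38 (SE 0.141) was the largest increase among the called genes (edgeR adjusted p = 7.59e-05, and at most 0.00235 with any 1 library left out). Rragc, a Rag GTPase that brings mTORC1 to the lysosome when amino acids are plentiful, had 604, 614 and 499 CPM in LINE1 ASO libraries, against 333, 387 and 362 CPM in RC ASO libraries. It rose by 0.67 on the log2 scale (SE 0.097; edgeR adjusted p = 0.00228, and up to 0.103 with 1 library left out). Ddit4, a stress-induced inhibitor of mTORC1, had 58.5, 73.7 and 67.9 CPM in LINE1 ASO libraries, against 41.2, 45.3 and 29.2 CPM in RC ASO libraries. It rose by 0.79 (SE 0.149; edgeR adjusted p = 0.0193) and kept its call in 2 of the 6 fits.

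The other subunits of these complexes did not pass the test. The second beta subunit gene of AMPK, Prkab2, differed by 0.62 (SE 0.255; edgeR adjusted p = 0.452), at 9.38 CPM in LINE1 ASO and 6.11 CPM in RC ASO on average. The catalytic subunit genes Prkaa1 (-0.13) and Prkaa2 (0.07) and the Rag gene Rraga (-0.024) lay near 0, and Mtor itself differed by 0.019 (SE 0.115; edgeR adjusted p = 0.981). Rictor, a subunit of mTORC2, had the second smallest p of the members not called, with 374, 359 and 314 CPM in LINE1 ASO libraries, against 316, 232 and 306 CPM in RC ASO libraries, so that the groups overlapped. Sesn1, a sestrin that restrains mTORC1 and a p53 target, had the smallest, with 0.921, 0.513 and 0.704 CPM in LINE1 ASO libraries, against 3.45, 1.68 and 3.24 CPM in RC ASO libraries (log2 -1.94, SE 0.485; edgeR adjusted p = 0.101). The list's median log2 fold change was 0.018 (0.027 without RC ASO replicate 2), beside -0.013 over all tested genes. Its summed level was 3267, 3287 and 3069 CPM in LINE1 ASO libraries and 2766, 2775 and 2840 CPM in RC ASO libraries; the 3 called genes are part of that sum.

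**Figure D2:**
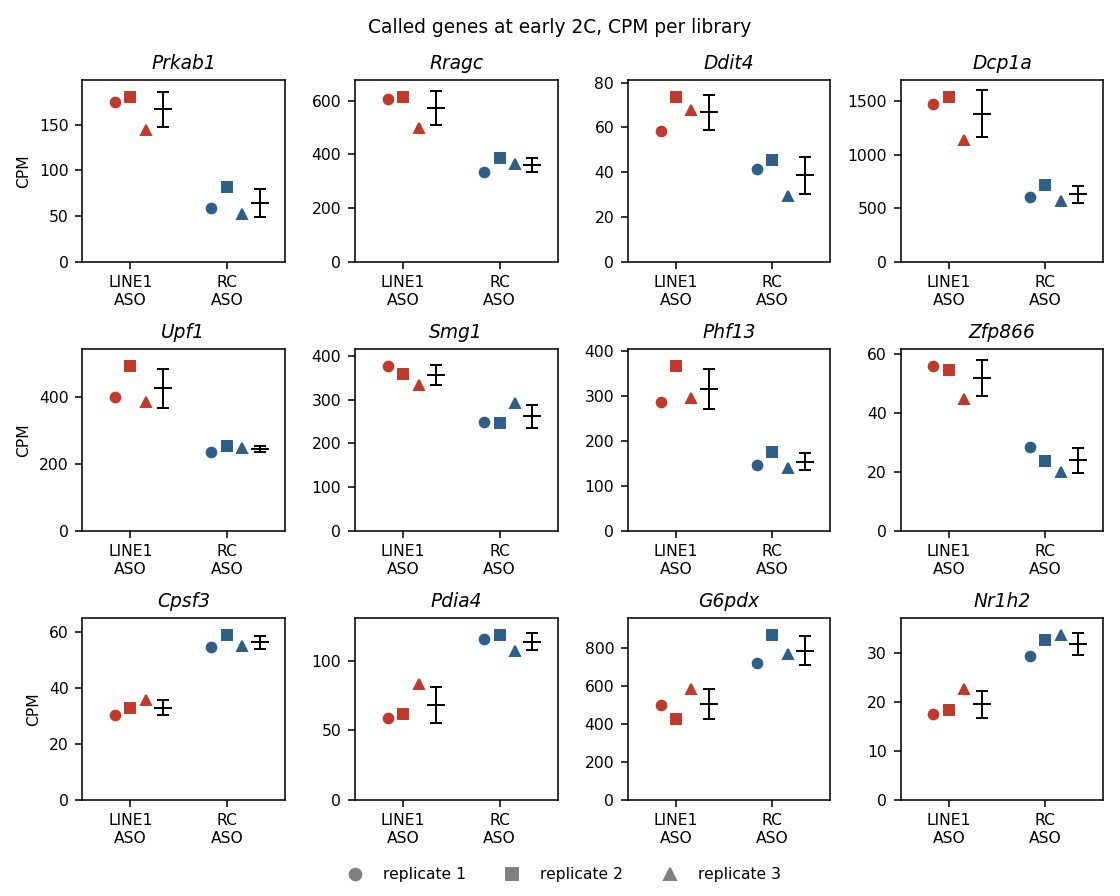
CPM in each early 2C library for 12 called genes, with LINE1 ASO libraries in red on the left of each panel and RC ASO libraries in blue on the right; the axes start at 0. Symbols give the replicate, and the dash with bars is the mean ± SD of the 3 libraries; in each panel the groups do not overlap, with LINE1 ASO above in the first 8 genes (Prkab1 to Zfp866) and below in Cpsf3, Pdia4, G6pdx and Nr1h2.

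In the machinery of mRNA decay, 3 of 81 tested genes rose and none fell, beside the same 0.272% and 0.0954% of all tested genes; with single called members, as in the lists that follow, such a count says little about a list. These genes shorten poly(A) tails, remove the 5′ cap and degrade the message, and include nonsense-mediated decay (NMD), which removes messages with early stop codons. Dcp1a, an activator of the decapping enzyme, had 1479, 1543 and 1135 CPM in LINE1 ASO libraries, against 600.5, 719.6 and 569 CPM in RC ASO libraries. It was among the more abundant messages, and LINE1 ASO replicate 3 was the lowest of its group and still above every RC ASO library. It rose by 1.14 on the log2 scale (SE 0.113; edgeR adjusted p = 4.24e-05, the smallest of all genes). Upf1, the RNA helicase at the centre of NMD, had 399.7, 494 and 385 CPM in LINE1 ASO libraries, against 234, 252 and 248.5 CPM in RC ASO libraries. It rose by 0.80 (SE 0.099; edgeR adjusted p = 0.000387, and at most 0.0202 with 1 library left out). Smg1, the kinase that phosphorylates Upf1 during NMD, had 378, 359 and 333 CPM in LINE1 ASO libraries, against 248, 246.5 and 292 CPM in RC ASO libraries. It rose by 0.44 (SE 0.094; edgeR adjusted p = 0.0401) and kept the call in 3 of 6 fits.

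Their partners differed less. Dcp2, the decapping enzyme, had a log2 fold change of 0.053 (SE 0.102; edgeR adjusted p = 0.94), and Edc4, a scaffold of the decapping complex, -0.11. In NMD, Upf2 stood at 134 CPM in LINE1 ASO and 119.9 CPM in RC ASO (log2 0.16, SE 0.093; edgeR adjusted p = 0.66), and Smg5 (-0.07) and Smg6 (0.14) were not called. Ddx6, a helicase of decapping and of stored mRNA, had 55.4, 57.6 and 48.0 CPM in LINE1 ASO libraries, against 45.8, 39.8 and 36.8 CPM in RC ASO libraries, without overlap but with an edgeR adjusted p of 0.288. Dis3l, a cytoplasmic exosome nuclease, went the other way, with 117, 93.1 and 103 CPM in LINE1 ASO libraries against 130.1, 138 and 134 CPM in RC ASO libraries (edgeR adjusted p = 0.192). The median of the 81 genes was 0.053, and 0.022 without RC ASO replicate 2. LINE1 ASO libraries lay above RC ASO libraries without overlap for 11 of the 81 and below for 5, beside 7.49% and 6.67% of all tested genes.

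At the 3′ end of the message, 1 of 27 tested genes fell (0.0954% of all tested genes) and none rose. Cpsf3, the endonuclease that cuts pre-mRNA before polyadenylation, had 30.5, 32.9 and 35.8 CPM in LINE1 ASO libraries, against 54.9, 59.2 and 55.3 CPM in RC ASO libraries. It fell by 0.77 on the log2 scale (SE 0.124; edgeR adjusted p = 0.00601) and kept the call in 4 of 6 fits. Of the other subunit genes of its complex, Cpsf1 differed by 0.28, Cpsf2 by 0.082, Cpsf4 by 0.46 and Fip1l1 by -0.38, and none was called. Fip1l1, which also binds poly(A) polymerase, had 431, 439.8 and 574 CPM in LINE1 ASO libraries, against 631, 588 and 658 CPM in RC ASO libraries, below them without overlap (edgeR adjusted p = 0.157). Rbbp6 had 32.6, 29.0 and 30.4 CPM in LINE1 ASO libraries, against 37.4, 45.6 and 40.7 CPM in RC ASO libraries (edgeR adjusted p = 0.253). LINE1 ASO libraries lay below RC ASO libraries without overlap for 5 of the 27 and above for 1, beside 6.67% and 7.49% of all tested genes, and the list's median was -0.038.

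Several other called genes encode chromatin proteins or transcription factors; they were gathered from the calls and not from a list, so no count is read from them. Phf13, whose PHD finger binds histone H3 methylated at lysine 4, had 286, 366 and 294 CPM in LINE1 ASO libraries, against 146, 175 and 139.6 CPM in RC ASO libraries. It rose by 1.04 (SE 0.110; edgeR adjusted p = 6.36e-05, and at most 0.00261 with 1 library left out). Zfp866, a zinc finger gene, had 56.1, 54.7 and 44.8 CPM in LINE1 ASO libraries, against 28.3, 23.6 and 19.9 CPM in RC ASO libraries. The groups were far apart for their spread, with a log2 rise of 1.12 (SE 0.149; edgeR adjusted p = 0.000997, and at most 0.0365 with 1 library left out). Ets2, an ETS-family factor, had 113, 118 and 103 CPM in LINE1 ASO libraries, against 68.1, 70.9 and 61.6 CPM in RC ASO libraries. Sox8, an SRY-related factor, had 104.5, 102 and 92.7 CPM in LINE1 ASO libraries, against 59.1, 62.5 and 64.4 CPM in RC ASO libraries. Ets2 rose by 0.73 (SE 0.106; edgeR adjusted p = 0.00228) and Sox8 by 0.69 (SE 0.106; edgeR adjusted p = 0.00472).

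Nfrkb, a subunit of the INO80 remodelling complex, had 207, 270.0 and 248 CPM in LINE1 ASO libraries, against 162, 169.6 and 127 CPM in RC ASO libraries (log2 0.66, SE 0.115). Ubn1, a subunit of the HIRA complex that deposits histone H3.3, rose by 0.45, with 367 ± 22.5 CPM in LINE1 ASO and 268 ± 17.7 CPM in RC ASO embryos (SD, n = 3 each). Ss18, a subunit of BAF remodelling complexes, rose by 0.45 and Naa40, which acetylates the amino ends of histones H2A and H4, by 0.50. Smad3, which carries TGF-beta and activin signals to the nucleus, rose by 0.46, the forkhead factor gene Foxk1 by 0.54 and the DNA break repair protein gene Trp53bp1 by 0.50, a call that ended with the length and GC offset described below (edgeR adjusted p = 0.0597). Without that offset their adjusted p-values ran from 0.0116 to 0.0381, and each kept its call in 2 to 4 of the 6 fits.

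In the opposite direction, Smc1a, a core subunit of the cohesin ring, had 105, 102 and 110.0 CPM in LINE1 ASO libraries, against 135, 147 and 187 CPM in RC ASO libraries. It fell by 0.56 (SE 0.112; edgeR adjusted p = 0.0276), while the cohesin subunit genes Smc3 (-0.16) and Rad21 (-0.029) were not called. Phc1, a subunit of Polycomb repressive complex 1, fell by 0.50, with 111 ± 11.1 CPM in LINE1 ASO and 156 ± 12.1 CPM in RC ASO embryos (SD, n = 3 each).

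Among 39 tested regulators of zygotic genome activation, 1 rose, Nfrkb, and none fell, beside 0.272% and 0.0954% of all tested genes. The median of the list was -0.054, and -0.014 without RC ASO replicate 2. Nfya, a subunit of the CCAAT-binding factor NF-Y, had 342.5, 399.8 and 419 CPM in LINE1 ASO libraries, against 277, 329.6 and 255 CPM in RC ASO libraries. Its partner Nfyc had 218, 194 and 303.5 CPM in LINE1 ASO libraries, against 300.2, 348.5 and 376 CPM in RC ASO libraries. The 2 NF-Y genes thus had opposite signs (log2 0.43, SE 0.104 for Nfya and -0.52, SE 0.135 for Nfyc). Neither passed the test with edgeR (edgeR adjusted p = 0.0889 and 0.149), while DESeq2 called Nfya higher and Nfyc lower (DESeq2 adjusted p = 0.0123 and 0.0213). Among 316 tested Zfp genes, 1 rose, Zfp866, and none fell, beside the same 0.272% and 0.0954% of all tested genes. Their median was 0.027, and 0.0015 without RC ASO replicate 2. Zfp398 came next, with 32.3, 33.3 and 28.3 CPM in LINE1 ASO libraries against 17.03, 19.6 and 22.6 CPM in RC ASO libraries (edgeR adjusted p = 0.0703), and DESeq2 called it higher.

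The transcripts that mark the stage itself did not pass the test. Dux, a multicopy gene whose reads may be split between copies, had 24.7, 36.8 and 27.3 CPM in LINE1 ASO libraries, against 26.7, 24.9 and 32.5 CPM in RC ASO libraries. The 2 groups overlapped (log2 0.076, SE 0.165; edgeR adjusted p = 0.952). Of 44 tested 2-cell-stage and MERVL-linked genes, 0 were called by edgeR and 0 by DESeq2. At an unadjusted p under 0.05 there were 0 higher and 5 lower, beside 3.99% and 4.85% of all tested genes. LINE1 ASO libraries lay above without overlap for 0 of the 44 and below for 7, beside 7.49% and 6.67% of all. The tested Zscan4 genes, at 6.01 mean CPM or less, had log2 fold changes between -0.56 (Zscan4c) and -3.38 (Zscan4e), and none was called. The median of the 44 genes was -0.14, and -0.050 without RC ASO replicate 2. Of the 44, 12 lay above 0 and 32 below, beside 6531 of all 13625 tested genes above 0. Usp17l5, from a multigene family of deubiquitinases, had the smallest p, with 7.15, 8.21 and 6.91 CPM in LINE1 ASO libraries, against 6.50, 18.0 and 16.4 CPM in RC ASO libraries, which overlap. Spz1 followed, with 1.90, 4.29 and 2.85 CPM in LINE1 ASO libraries against 4.30, 6.62 and 6.02 CPM in RC ASO libraries (edgeR adjusted p = 0.35).

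Of 60 tested maternal oocyte transcripts, 0 were called by edgeR, and DESeq2 called 1, Tle6, lower. At an unadjusted p under 0.05 there were 6 higher and 6 lower, beside 3.99% and 4.85% of all tested genes. Tle6, a member of the maternal complex that early cleavage needs, had 191, 162 and 237 CPM in LINE1 ASO libraries, against 311, 307 and 239.9 CPM in RC ASO libraries (edgeR adjusted p = 0.087). The median of the maternal list was -0.043, and 0.021 without RC ASO replicate 2. In bulk embryos, a slower loss of stored RNA and a higher rate of transcription cannot be told apart.

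Genes of the endoplasmic reticulum (ER) and of lipid handling were called in both directions. Pdia4, a protein disulfide isomerase that forms disulfide bonds in the ER, had 59.3, 62.1 and 83.3 CPM in LINE1 ASO libraries, against 116, 119.1 and 108 CPM in RC ASO libraries. It fell by 0.74 (SE 0.123; edgeR adjusted p = 0.00657), with LINE1 ASO replicate 3 nearest to the RC ASO libraries. It was the only one of 44 tested ER folding and unfolded protein response genes that passed the test with edgeR; at an unadjusted p under 0.05 there were 9 lower members and 1 higher, beside 4.85% and 3.99% of all tested genes. Its relatives Pdia3 (-0.24) and Pdia6 (-0.39) and the ER chaperone gene Hsp90b1 (-0.26) were not called, and Hspa5, the main ER chaperone and sensor of unfolded protein, differed by 0.069 (SE 0.119). Ddit3, a stress-induced transcription factor, had 28.5, 34.5 and 42.6 CPM in LINE1 ASO libraries, against 47.6, 64.6 and 44.3 CPM in RC ASO libraries (edgeR adjusted p = 0.186). Derl2, which helps to clear misfolded ER proteins, had 22.7, 24.2 and 19.03 CPM in LINE1 ASO libraries, against 15.4, 12.1 and 13.1 CPM in RC ASO libraries (edgeR adjusted p = 0.095), and DESeq2 called it higher. The list's median was -0.042, and -0.021 without RC ASO replicate 2. Its summed level of 3157 to 3708 CPM in LINE1 ASO libraries overlapped the 3443 to 3906 CPM in RC ASO libraries.

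Atl3, a GTPase that fuses ER tubules, was the 1 called member of 18 genes that shape the ER, beside 0.272% of all tested genes called higher. It had 15.5, 17.4 and 15.3 CPM in LINE1 ASO libraries, against 8.90, 9.07 and 8.42 CPM in RC ASO libraries, a rise of 0.87 on the log2 scale (SE 0.183; edgeR adjusted p = 0.0401). Cog3, a subunit of the complex that tethers vesicles at the Golgi, rose by 0.81 (SE 0.149), with 59.4, 62.0 and 46.1 CPM in LINE1 ASO libraries against 29.5, 38.3 and 27.7 CPM in RC ASO libraries. Among 46 genes of sterol handling, the liver X receptors (nuclear receptors that respond to oxysterols) and START-domain lipid carriers, 1 rose and 1 fell. Of all tested genes, 0.272% rose and 0.0954% fell. Stard5, a START-domain sterol carrier, had 28.1, 24.8 and 26.0 CPM in LINE1 ASO libraries, against 15.1, 12.4 and 13.9 CPM in RC ASO libraries. It rose by 0.93 (SE 0.159; edgeR adjusted p = 0.00892). Nr1h2, which encodes liver X receptor beta, had 17.6, 18.4 and 22.6 CPM in LINE1 ASO libraries, against 29.4, 32.6 and 33.8 CPM in RC ASO libraries. It fell by 0.71 (SE 0.151; edgeR adjusted p = 0.0411).

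In carbon metabolism, G6pdx fell and was the 1 called gene of 30 tested, beside 0.0954% of all tested genes called lower. It encodes glucose-6-phosphate dehydrogenase, which starts the pentose phosphate pathway and yields NADPH. Its level was 498, 423 and 583 CPM in LINE1 ASO libraries, against 719, 868 and 768 CPM in RC ASO libraries. The decrease of 0.65 on the log2 scale (SE 0.107; edgeR adjusted p = 0.00657) was carried by the most abundant of the 13 lower genes. Slc16a1, a lactate and pyruvate transporter, had 33.3, 27.6 and 25.0 CPM in LINE1 ASO libraries, against 23.9, 14.8 and 19.4 CPM in RC ASO libraries (edgeR adjusted p = 0.25). The list's median was -0.090, and -0.021 without RC ASO replicate 2.

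In the cell cycle, 1 of 62 tested genes rose and none fell with edgeR, beside 0.272% and 0.0954% of all tested genes. Cdc25a, a phosphatase that activates cyclin-dependent kinases, had 239.9, 245 and 227 CPM in LINE1 ASO libraries, against 185, 148 and 142 CPM in RC ASO libraries. It rose by 0.58 (SE 0.103; edgeR adjusted p = 0.0127). Cdk7, the kinase that activates other cyclin-dependent kinases, had 35.6, 32.6 and 39.7 CPM in LINE1 ASO libraries, against 49.7, 56.9 and 46.0 CPM in RC ASO libraries; it missed edgeR's threshold (adjusted p = 0.129), and DESeq2 called it lower. Of 26 tested p53 response genes, Ddit4 was the 1 called, beside 0.272% of all tested genes called higher. Trp53inp1, another p53 target, had 156, 162 and 132 CPM in LINE1 ASO libraries, against 131, 106 and 126 CPM in RC ASO libraries (edgeR adjusted p = 0.33).

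Single members of 3 cytoskeletal and chaperone lists fell with edgeR, beside 0.0954% of all tested genes. Flii, an actin-remodelling protein of the gelsolin family, had 34.7, 26.0 and 41.2 CPM in LINE1 ASO libraries, against 55.5, 65.3 and 56.0 CPM in RC ASO libraries, and was the 1 called of 50 actin remodelling genes (log2 -0.80, SE 0.150). Pfn1, which delivers actin monomers, had 63.5, 47.5 and 49.7 CPM in LINE1 ASO libraries, against 70.1, 80.8 and 77.9 CPM in RC ASO libraries (edgeR adjusted p = 0.101), and DESeq2 called it lower. Spire1, of the same list, went the other way (log2 0.326, SE 0.089; edgeR adjusted p = 0.152), and DESeq2 called it higher. It had 289.6, 293.8 and 271.9 CPM in LINE1 ASO libraries, against 238.5, 233.4 and 210.4 CPM in RC ASO libraries. Cep250, a linker between centrioles, fell by 0.58 (SE 0.122), with 36.4, 37.4 and 40.1 CPM in LINE1 ASO libraries against 61.5, 53 and 55.5 CPM in RC ASO libraries. It was the 1 called of 20 Cep genes. Cct5, a subunit of the chaperonin that folds actin and tubulin, fell by 0.56 (SE 0.121; edgeR adjusted p = 0.045) as the 1 called of 39 heat shock and chaperonin genes. Its level was 48.9, 44.4 and 55.3 CPM in LINE1 ASO libraries, against 76.8, 75.9 and 66.4 CPM in RC ASO libraries. Hsp90aa1, the inducible cytosolic Hsp90, had 2325, 2424 and 2357 CPM in LINE1 ASO libraries, against 2026, 1870 and 2200 CPM in RC ASO libraries (log2 0.22, SE 0.085; edgeR adjusted p = 0.405).

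The remaining higher genes with a plain symbol were outside the lists. Ccdc117 had 381, 539 and 485 CPM in LINE1 ASO libraries, against 272, 289 and 204 CPM in RC ASO libraries (log2 0.88, SE 0.132). Sh3bgrl2 had 49.1, 52.2 and 44.9 CPM in LINE1 ASO libraries, against 28.8, 29.1 and 23.6 CPM in RC ASO libraries (log2 0.84, SE 0.136). Rises between 0.45 and 0.59 were called for the kinase gene Stk35, the mitochondrial Bcl2-family gene Bcl2l13, the phosphoinositide phosphatase gene Mtmr4, the Ras-related genes Rassf3 and Diras2, the membrane protein gene Dcbld2, and Ypel2, Fam168a and Fam84b. Mxd1, Fam118a, Efnb2 and Eif2b1 were also called, with rises of 0.44 to 0.48. The remaining lower genes were Ccdc130, with 17.2, 16.6 and 25.9 CPM in LINE1 ASO libraries against 36.7, 40.7 and 36.7 CPM in RC ASO libraries (log2 -0.94, SE 0.167), the kinase gene Stk32b (-0.79), the clone-named 1810055G02Rik (-0.77) and the growth-related gene Tpt1 (-0.48). Tpt1 and Cct5 have processed pseudogenes, so their counts are less certain.

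Ribosomal protein and histone genes had the lowest medians of the lists with at least 15 tested genes, and those medians moved with single libraries. With 1 library left out at a time, the ribosomal median ran from -0.42 to -0.058 and the histone median from -0.56 to -0.19. The fits without RC ASO replicate 2 gave the values nearest to 0. The 76 tested genes of the cytoplasmic ribosome had a median log2 fold change of -0.24 with all 6 libraries and -0.058 without RC ASO replicate 2, beside -0.013 and -0.0013 over all genes. No member was called by edgeR, 0 were higher and 19 lower at an unadjusted p under 0.05 (3.99% and 4.85% of all tested genes), and DESeq2 called 2 lower, Rpl14 and Rpl23a. Rpl23a had 16.7, 16.7 and 29.0 CPM in LINE1 ASO libraries, against 38.7, 46.1 and 31.2 CPM in RC ASO libraries (edgeR adjusted p = 0.0703). The 81 ribosomal protein genes in the data summed to 1348, 1475 and 1817 CPM in LINE1 ASO libraries and 1830, 2322 and 1536 CPM in RC ASO libraries. RC ASO replicate 2 was the highest, and the groups overlapped. The 45 tested replication-dependent histone genes had a median of -0.47, and -0.19 without RC ASO replicate 2. The 68 histone genes in the data summed to 1331, 1647 and 1661 CPM in LINE1 ASO libraries and 1666, 2450 and 1726 CPM in RC ASO libraries. No histone gene was called by edgeR or DESeq2. At an unadjusted p under 0.05 there were 0 higher and 11 lower, beside 3.99% and 4.85% of all tested genes. Hist1h4d had the smallest p, with 6.92, 8.40 and 10.1 CPM in LINE1 ASO libraries against 8.94, 17.9 and 16.1 CPM in RC ASO libraries, which overlap.

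**Figure D3:**
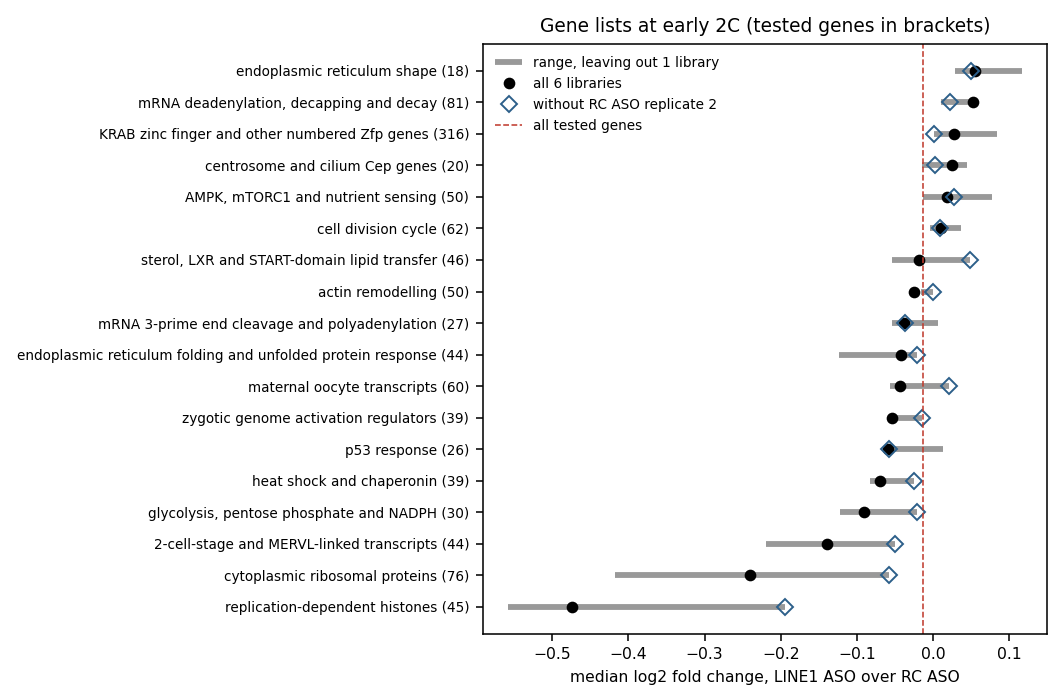
Median log2 fold change at early 2C, LINE1 ASO over RC ASO, of each gene list with at least 15 tested genes. Black points use all 6 libraries, grey bars span the medians when 1 library at a time was left out, open diamonds are the medians without RC ASO replicate 2 and the dashed line is the median of all tested genes; histone, ribosomal protein and 2-cell-stage lists lie farthest below it and move towards it without RC ASO replicate 2.

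Transcript length moved with RC ASO replicate 2, and what sets that library apart was not tested. In RC ASO replicate 2 the shortest of 5 equal classes of tested genes by length (1805 nt or less) lay 0.21 above its mean over the 6 libraries on the log2 scale, and the longest class (5174 nt or more) 0.13 below it. In LINE1 ASO replicate 1 the slope ran the other way, with -0.11 in the shortest class and 0.069 in the longest. The median log2 fold change went up with length over the 5 classes, at -0.12, -0.045, 0.0037, 0.021 and 0.044. Without RC ASO replicate 2 the 5 medians were -0.021, -0.0033, 0.015, 0.012 and -1.21e-05. The higher genes had a median transcript length of 4666 nt and the lower genes 2499 nt, beside 3157 nt over all tested genes. An offset for length and GC content was then added for each library. With that offset 49 of the 50 genes were called (not Trp53bp1) and all kept their direction, among 87 calls in all. The median of the ribosomal protein list was then -0.051 and that of the histone list -0.23, while that of the 2-cell-stage list was -0.16.

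**Figure D4:**
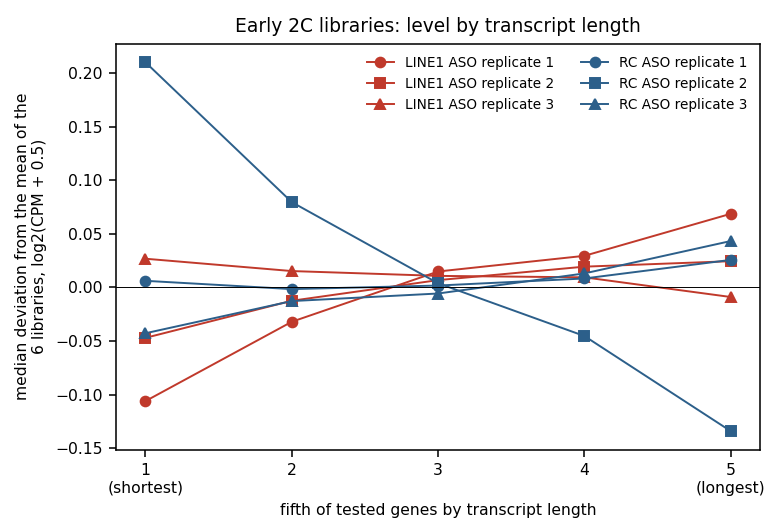
Median deviation of log2(CPM + 0.5) from the mean of the 6 early 2C libraries, by transcript length in 5 equal classes, 1 line per library, with LINE1 ASO libraries in red and RC ASO libraries in blue. RC ASO replicate 2 is at 0.21 in the shortest class and at -0.13 in the longest, LINE1 ASO replicate 1 runs the other way, and the other 4 libraries stay within 0.05 of 0.

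The 4C libraries are a separate set in which the 50 genes can be read again. At 4C the LINE1 ASO libraries lay above the RC ASO libraries without overlap for 18 of the 37 genes that were higher at early 2C (48.6%), beside 15.1% of all genes tested at early 2C. They lay below for 6 of the 37 (16.2%), beside 10.6% of all. The 37 genes were more abundant at early 2C, with a median of 184.8 mean CPM beside 11.85 over all tested genes. The shares over all genes are thus not matched for abundance, and whether abundance sets the difference was not tested. With CPM from library totals instead of TMM factors, 21 of the 37 lay above, 56.8% beside 20% of all genes. Of the 13 genes lower at early 2C, 1 lay below at 4C (Smc1a), 2 lay above (Cep250 and 1810055G02Rik) and 10 overlapped. The ratio of mean CPM at 4C gave another picture. It lay below the median of all genes for 11 of the 13 lower genes (84.6%). For the higher genes it lay above that median in 22 of 37 (59.5%), beside 50% of all genes on each side.

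Rragc, Ddit4, Dcp1a and Zfp866 were among the genes higher at both stages. Rragc had 224, 196 and 94.6 CPM in 4C LINE1 ASO libraries, against 36.2, 45.1 and 63.3 CPM in 4C RC ASO libraries. Ddit4 had 277, 266 and 159.7 CPM in 4C LINE1 ASO libraries, against 101, 82.9 and 77.7 CPM in 4C RC ASO libraries. Dcp1a had 275, 228 and 102 CPM in 4C LINE1 ASO libraries, against 73.0, 71.0 and 76.9 CPM in 4C RC ASO libraries. In all 3 genes LINE1 ASO replicate 3 was the 4C library nearest to the RC ASO group. Zfp866 was even across replicates, with 30.2, 31.8 and 31.4 CPM in 4C LINE1 ASO libraries against 16.6, 23.3 and 18.5 CPM in 4C RC ASO libraries. Upf1 and Smg1 were higher at early 2C and overlapped at 4C. At that stage Upf1 stood at 242, 237 and 251 CPM in LINE1 ASO libraries and 204, 218 and 264 CPM in RC ASO libraries.

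Prkab1 had opposite directions at the 2 stages. At 4C it stood at 81.5, 76.5 and 91.9 CPM in LINE1 ASO libraries, against 165, 137 and 160.0 CPM in RC ASO libraries, without overlap. The change in the LINE1 ASO effect, 4C minus early 2C, was -2.28 on the log2 scale (SE 0.248; edgeR adjusted p = 0.0011, fitted on all 12 libraries). Smc1a was lower at both stages, with 66.9, 57.95 and 95.8 CPM in 4C LINE1 ASO libraries against 170.3, 222 and 198.5 CPM in 4C RC ASO libraries. In that fit 176 of 15760 genes were called (1.12%), and 11 of the 50 early 2C calls were among them, all with an interaction of opposite sign to the early 2C difference; with 1 library left out the number of interaction calls ran from 19 to 1297. Those early 2C differences are part of the interaction, so the opposite signs are not separate evidence.

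**Figure D5:**
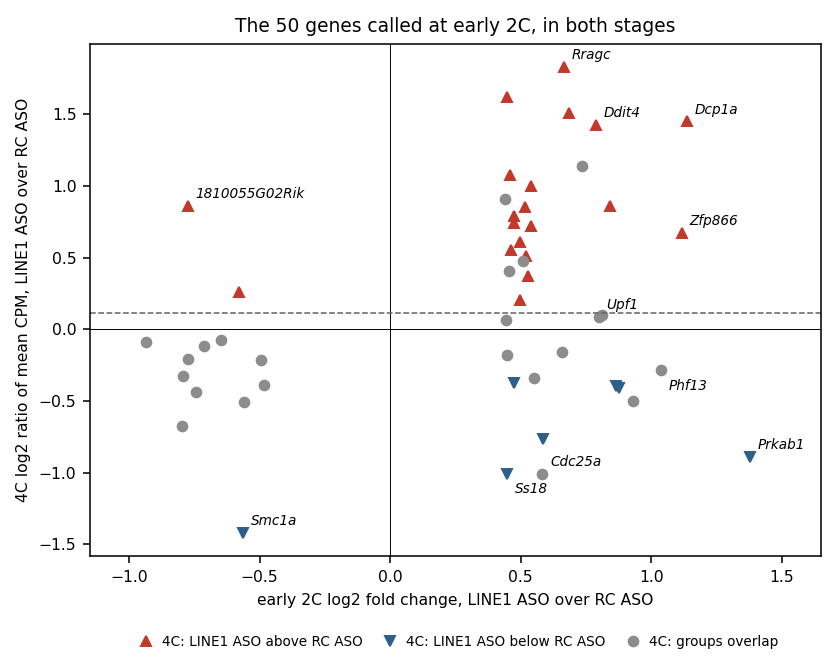
Log2 fold change at early 2C (x axis) and log2 ratio of mean CPM at 4C (y axis), both LINE1 ASO over RC ASO, for the 50 genes called at early 2C; the dashed line is the 4C median of all genes tested at early 2C, 0.12. Red triangles are genes whose 3 LINE1 ASO libraries all lie above the 3 RC ASO libraries at 4C, blue triangles those below and grey points those that overlap: 18 of the 37 higher genes are red, and Prkab1 stands apart at the lower right.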

How the data were processed

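Per the labels' protocols, total RNA was extracted with a column kit, a stranded pico-input kit was used on 500 pg, and single-end 50 nt reads were run on 2 lanes. The authors deposited raw counts of reads for each gene, with a table for each stage. The submitters' processing notes name the build mm9, DESeq2 1.12.3, R 3.3.0, TopHat2 2.0.9 and Trim Galore 0.4.0, with no roles given. FeatureCounts is named only in the tables' own titles, as deposited; the sources used here give neither its version nor its annotation nor its use of strand, so overlapping or antisense genes, multigene families and genes with processed pseudogenes are uncertain.

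Libraries were grouped by their titles. The 6 early 2C libraries (25803112 to 51854939 counts, which limits precision for genes with few counts) were fitted in edgeR 4.0.16 (R 4.3.3): filterByExpr, TMM scaling, robust quasi-likelihood F-test, Benjamini-Hochberg adjustment over all tested genes, threshold 0.05. Standard errors are the log2 fold change without its sign over the square root of F. Every adjusted p comes from this test unless DESeq2 1.42.0 is named. The stage by ASO interaction and the 4C CPM values use a fit on all 12 libraries. Transcript length and GC content came from GENCODE M21 (GRCm38), by symbol for 22825 of 23284 genes, and promoters from RefSeq. Counts of both stages were joined by gene for the fits on all 12 libraries. No counts were summed across libraries, and no library was dropped from the main fit.

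Named genes were the called genes with a plain symbol, at most 30 per direction by p, the called members and the 2 other tested members with the smallest p of each of 21 lists, and Dux. Not every gene that this rule took is described in the text. Other members of the AMPK, decay, cleavage, cohesin and ER complexes, the called genes beyond that number and the 2 clone-named ones were named after their values were seen. The comparison, the lists and the rule were chosen with earlier results of these data known. The scripts were tested on simulated counts. Alternatives were DESeq2, its size factors or library totals in edgeR, other low-count filters, a replicate block, no robust dispersion, a joint fit, a length and GC offset, and leaving out each library.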

Additional observations from a re-analysis of the deposited data

Results flagged for a closer look

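The LINE1 ASO effect was called different between the stages for 12 of the named genes, by the interaction term of a fit on all 12 libraries (4C minus early 2C, LINE1 ASO over RC ASO, log2; edgeR adjusted p under 0.05). Over all genes in that fit, 176 of 15760 were called (1.12%). All of the 12 but Dux were named for a small p at early 2C. That early 2C difference is part of the interaction, so an interaction of opposite sign is not separate evidence. Prkab1 had an interaction of -2.275 and Ss18 of -1.465, and both kept the call in all 12 fits that leave out 1 library. Ccdc117 (-1.293) kept it in 11, Phf13 (-1.333) in 10 and Ypel2 (-1.356) in 7. Sesn1 (2.52) kept it in 4, Atl3 (-1.273) and Rbbp6 (1.069) in 3, and Dux (5.851), Cep250 (0.829), Stk35 (-0.8949) and Cdc25a (-1.601) in 2. Ss18 had 79.0, 61.1 and 94.8 CPM in 4C LINE1 ASO libraries, against 152, 159.6 and 161 CPM in 4C RC ASO libraries. Ypel2 had 385, 276 and 464 CPM in 4C LINE1 ASO libraries, against 658, 646 and 601 CPM in 4C RC ASO libraries. Dux had 43.0, 45.8 and 1.27 CPM in 4C LINE1 ASO libraries, against 0.792, 0.0941 and 0.563 CPM in 4C RC ASO libraries, so that 4C LINE1 ASO replicate 3 stood near the RC ASO group. The median interaction over all genes was 0.187 with TMM factors, 0.332 with library totals and 0.101 with DESeq2 size factors.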

How the results depend on the processing

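The 50 early 2C calls were 162 with DESeq2, 207 with no low-count filter, 2 in a joint fit of the 12 libraries and 87 with the length and GC offset; the cause was not tested. Leaving out 1 library gave 5 to 110 calls (88 without RC ASO replicate 2). The share of calls that were higher was 74% in the main fit, 47.8% with no filter, 61.1% with DESeq2, 60% with the replicate block and 40.9% without LINE1 ASO replicate 3. Other scalings and the stricter filter gave 43 to 54 calls, and no robust dispersion 36. The 176 interaction calls were 908 with DESeq2, 277 with library totals and 19 to 1297 with 1 library left out (1297 without 4C LINE1 ASO replicate 3); 58% were higher in the main fit, 42.3% with DESeq2 size factors and 80.9% with library totals. Whether replicate numbers pair the libraries is not stated, and 3 libraries a group are too few to settle it from the values. The 3 same-numbered pairs had deviations that correlated at 0.0339, -0.0253 and -0.0429. Of the 6 libraries 1, RC ASO replicate 1, correlated best with its own number. A replicate block gave 80 early 2C calls and 91 interaction calls. All 50 called genes kept their direction under each alternative. Among other named genes the sign turned for Dux (-0.1073 without LINE1 ASO replicate 2, to 0.1981 without RC ASO replicate 3) and Itgam (0.03957 without RC ASO replicate 3, to -1.721 without LINE1 ASO replicate 3), neither called. The blood list had no median under the stricter filter. In the main fit, calls were found only among genes with means of 200 counts or more per library.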

Other observations

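Apobec3, which encodes a cytidine deaminase that restricts retroviruses and retrotransposons, had 0 counts in each of the 3 early 2C LINE1 ASO libraries, against 21, 11 and 25 counts in the early 2C RC ASO libraries. With 3 counts summed over the LINE1 ASO libraries as a chosen floor, its level came out 25.1-fold lower. That figure makes no allowance for the spread of the RC ASO counts. It was chosen after its values were seen: it missed the threshold in the early 2C fit (edgeR adjusted p = 0.0603) and passed in the joint fit of the 12 libraries (edgeR adjusted p = 0.00774), where Prkab1 was the only other call. At 4C it had 404, 503 and 639 counts in LINE1 ASO libraries, against 463, 371 and 587 counts in RC ASO libraries. In all, 23 genes had 0 counts in every LINE1 ASO library and counts in every RC ASO library at early 2C, and 67 genes the reverse. Apobec3 had the highest summed count of the 23, at 57.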
